A study of Mus musculus with 3 samples.

Results

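The regions described here are MEIS2 peaks that lie between genes but close to them, called flanking peaks below. A flanking peak is a peak of MEIS2 replicate 1 on chromosomes 1 to 19 that shares at least 1 bp with a replicate 2 peak and none with a peak of the library made without antibody. Its summit is outside every annotated gene, more than 1 kb from every gene end and at most 50 kb from the nearest protein-coding gene. Of 78375 replicate 1 peaks, 73347 were on these chromosomes, 48674 of those had a replicate 2 partner, and 44673 of these were clear of the no-antibody library; this last set is called reproducible. Of the reproducible peaks, 17460 had a summit outside all genes, 15344 of these were more than 1 kb from a gene end, and 6921 met all conditions. The flanking peaks were thus 15.5% of the reproducible peaks (95% Wilson interval 15.2 to 15.8). All positions are mm10.

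All 3 libraries came from the lateral ganglionic eminence (LGE), the embryonic ridge that produces the projection neurons of the striatum, of wild-type CD1 mice at embryonic day 14.5, and each used 100000 cells. The 2 MEIS2 libraries were made with a mouse polyclonal antibody against MEIS2 and the control library with none; no sample carries a mutation or a treatment. CUT&Tag tethers the Tn5 transposase to antibody-bound chromatin, which cuts the DNA beside it and adds sequencing adapters in place. The labels do not say how many embryos were pooled or whether the 2 MEIS2 libraries came from separate dissections, and the spread between them may be technical. A peak list carries no expression values, so the tissue label could not be checked against marker genes.

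MEIS2 is a TALE homeodomain protein; the class is named for extra residues in a loop of the DNA-binding domain. MEIS proteins bind a short site on their own and a longer composite site together with PBX partners, which are TALE proteins as well. Regulatory DNA outside promoters, such as enhancers, often lies in the intergenic stretches beside developmental genes, and LGE patterning genes such as Dlx2, Gsx2 and Isl1 are known for it. A peak beside a gene does not show that it acts on that gene, and the nearest gene is used below only as an address.

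No genome sequence was used here, so the letters of the flanking peaks themselves are not shown. The sequences that follow are from the promoters of genes beside which they lie, taken from RefSeq (GRCm38.p6) for 16457 of the 20665 protein-coding genes on chromosomes 1 to 19. No flanking peak overlapped one of these 300-base windows, which start 250 bases before the transcription start. The selection rule largely fixes this result, because it leaves out peaks centred close to a gene. Nothing is concluded from it. A reproducible peak did overlap 7836 of the 16457 windows (47.6%). The composite PBX-MEIS letters, TGAT directly followed by TGACAG and read on both strands, occurred in 38 of all windows (0.231%), in 22 of the 7836 with a peak (0.281%, 0.185 to 0.425) and in 16 of the 8621 without one (0.186%, 0.114 to 0.301), intervals that overlap. Of the 1618 windows with a promoter peak whose gene was nearest to a flanking peak, 8 held these letters (0.494%, 0.251 to 0.973). That interval overlaps the one for all windows with a peak. The 6 of these 8 with the letters wholly before the start are shown 5′ to 3′ on the gene's strand, with the composite site in capitals.
Alg10b, chr15:90224177-90224236, plus strand: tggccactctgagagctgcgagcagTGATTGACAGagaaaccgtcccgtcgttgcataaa
Elac2, chr11:64978912-64978971, plus strand: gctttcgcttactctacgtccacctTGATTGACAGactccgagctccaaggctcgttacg
Npc2, chr12:84773126-84773185, minus strand: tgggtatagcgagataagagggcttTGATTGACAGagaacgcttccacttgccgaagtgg
Setd7, chr3:51560883-51560942, minus strand: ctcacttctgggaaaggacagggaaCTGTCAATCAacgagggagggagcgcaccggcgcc
Sp4, chr12:118301441-118301480, minus strand: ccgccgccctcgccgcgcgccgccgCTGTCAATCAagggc
Zfp869, chr8:69716950-69717009, minus strand: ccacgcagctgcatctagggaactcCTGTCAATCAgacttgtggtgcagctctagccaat

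In Setd7, Sp4 and Zfp869 the capitals read the site on the opposite strand. The stretch shown for Zfp869 lies outside its promoter peak, which is at chr8:69716477-69716913. Sp4 encodes a zinc finger transcription factor of the Sp family. Its promoter peak (chr12:118301171-118302500) had fold enrichments of 8.26 in replicate 1 and 8.03 in replicate 2. Fold enrichment is the caller's ratio of the tag pileup at the summit to the pileup expected from the surroundings. The stronger of the 2 flanking peaks beside Sp4, at chr12:118346444-118347090 and 45.3 kb from the gene on its 5′ side, had 11.5 and 8.02. Beside Alg10b, a glycosyltransferase gene, the flanking peak at chr15:90192683-90193424 reached 15.6 and 18.8, above the promoter peak's 10.6 and 7.01. The flanking peaks of Elac2 (10.1 and 12.5), Npc2 (9.60 and 10.4) and Setd7 (12.1 and 10.9) were also high against the flanking medians given below, while that of Zfp869 was not (5.88 and 5.10).

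The shorter MEIS letters TGACAG, contained in the composite site, were found on either strand in 18.5% of all windows, in 15.0% (14.3 to 15.9) of those with a promoter peak and in 21.6% (20.7 to 22.5) of those without. The same letters read backwards without complement, GACAGT, which keep the base composition, gave 12.1%, 9.46% and 14.4%. Both were thus rarer in windows with a promoter peak, by a similar proportion. The whole window was searched, so letters found in it need not lie under the peak. Windows of genes with a flanking peak nearest to them held TGACAG in 18.8% of cases (17.6 to 20.1) and the windows of other genes in 18.4% (17.7 to 19.1), a difference smaller than the counting error. TGATNNAT, a PBX-HOX type site, was present in 2.55% of windows with a promoter peak and 12.2% without, and the homeodomain core TAATTA in 1.42% and 7.53%. The E-box CAGCTG was present in 14.7% and 15.6%. No letters of matched base composition were searched beside TGATNNAT, TAATTA and CAGCTG, so nothing is concluded from their shares.

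Dlx2 and Satb1 are shown as promoters of developmental genes that had a promoter peak and several flanking peaks; each run gives the 250 bases before the start, and capitals would mark TGACAG on either strand. Neither run holds it. The promoter peaks, chr2:71546687-71546901 at Dlx2 and chr17:51832893-51833357 at Satb1, cover only a part of each run.
Dlx2, chr2:71546755-71547004, minus strand: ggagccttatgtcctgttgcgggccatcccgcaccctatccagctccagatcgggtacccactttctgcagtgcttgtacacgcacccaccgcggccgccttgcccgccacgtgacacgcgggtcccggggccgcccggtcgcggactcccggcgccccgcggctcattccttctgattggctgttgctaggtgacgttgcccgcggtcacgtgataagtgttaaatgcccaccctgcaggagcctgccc
Satb1, chr17:51833291-51833540, minus strand: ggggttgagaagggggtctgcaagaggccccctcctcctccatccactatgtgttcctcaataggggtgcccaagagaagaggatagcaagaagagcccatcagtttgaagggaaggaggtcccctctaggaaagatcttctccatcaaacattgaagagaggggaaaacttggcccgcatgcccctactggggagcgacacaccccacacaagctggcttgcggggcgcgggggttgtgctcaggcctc

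The flanking peaks spanned a wide range of strength. In replicate 1 their fold enrichment ran from 2.09 to 26.6 with a median of 7.11 (quartiles 5.64 and 10.0), and in replicate 2 from 1.96 to 29.1 with a median of 6.39 (5.10 and 8.93). The median pileup, which counts the extended tags over the summit, was 16 in replicate 1 and 12 in replicate 2. Pileup is not scaled to depth, and the caller kept 7618406 MEIS2 tags for replicate 1 and 6559629 for replicate 2, and 6337375 tags without antibody. The totals before this filter were 74259592, 79760948 and 72763762 tags, with redundant rates of 0.90, 0.92 and 0.91, so most tags of each library were duplicates. Fold enrichment was higher in replicate 1 for 4489 of the 6921 peaks (64.9%). The replicates differed by more than 2 times at 166 of them (2.40%). Across the flanking peaks the fold enrichments of the 2 replicates had a Spearman correlation of 0.716, given as a description only because both lists were required to hold each peak. The summits of the replicates lay a median of 32 bp apart (quartiles 12 and 75 bp), and 63.5% were within 50 bp. At 56 flanking peaks (0.809%) the replicate 2 partner was shared with another flanking peak, so their replicate 2 values are not separate measurements.

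**Figure D1:**
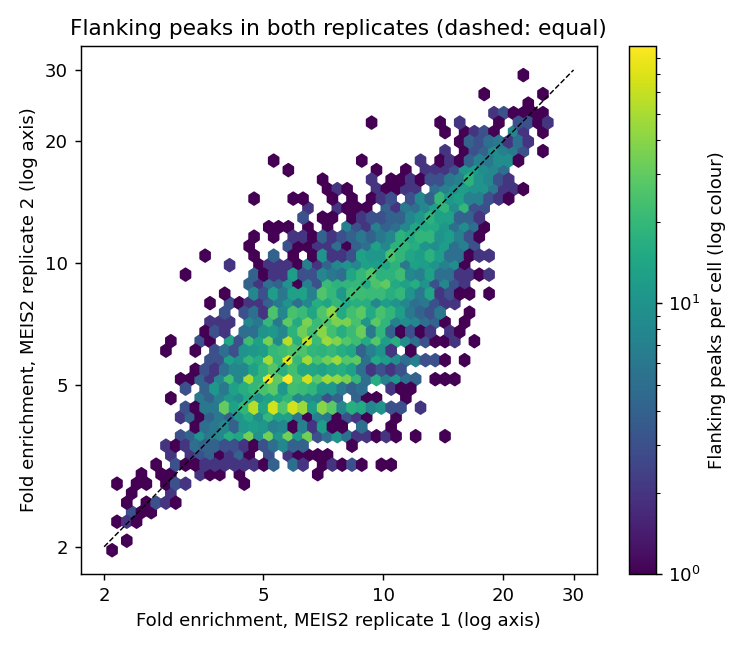
Fold enrichment of the 6921 flanking peaks in MEIS2 replicate 1 (x axis, log scale) and replicate 2 (y axis, log scale); colour gives the number of peaks in each hexagon on a log scale and the dashed line marks equal values. The cloud follows the line with a Spearman correlation of 0.716, and 64.9% of the peaks lie below it; the horizontal stripes are values that many peaks share.

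The 10 flanking peaks with the highest lower-of-replicates fold enrichment lay on 7 chromosomes. The first, at chr3:33970038-33970446, had fold enrichments of 25.1 and 27.1 and pileups of 82 and 80. It lay 49.8 kb on the 5′ side of Fxr1, which encodes an RNA-binding protein of the fragile X family, and only 1935 bp from the end of another annotated gene that is not protein-coding. The second, at chr2:168619146-168619597, lay 15.1 kb on the 3′ side of Atp9a, a phospholipid flippase gene, with 25.5 and 23.1. The third, at chr3:19462178-19462684 and 46.2 kb from Dnajc5b, had 23.1 in each. The peak nearest to a gene among the strongest 10 lay 1.96 kb from Heatr5b (chr17:78750740-78751109, 23.0 and 25.3). The other 6 lay beside Spink1, Nuf2, Ccdc190, the prostaglandin receptor gene Ptger3, Gm46320 and Fam114a2, at 8.03 to 41.0 kb, and had replicate 1 values from 22.0 to 26.6 and replicate 2 values from 22.4 to 29.1. None of the 10 lay beside a gene of the lists described below. Only 149 of all 6921 flanking peaks did, so their absence among 10 says little.

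Flanking peaks were narrow, and their fold enrichment lay between those of the other distal classes. Their median width was 315 bp in replicate 1 and 284 bp in replicate 2, against 555 and 444.5 bp for the 13148 reproducible peaks within 1 kb of a gene end, 336 and 289 bp for the 16181 farther inside genes, and 332 and 305 bp for the 8423 intergenic peaks beyond 50 kb. A width of at least 1000 bp was found in 96 flanking peaks (1.39%) and in 1366 gene-end peaks (10.4%). Median fold enrichment was 7.11 and 6.39 at flanking peaks, 7.46 and 6.33 at gene ends, 6.70 and 6.0 inside genes, and 8.23 and 7.34 beyond 50 kb. The order of flanking and gene-end peaks by this median thus differed between the replicates, whereas in both replicates flanking peaks were above those inside genes and below those beyond 50 kb. The quartile ranges of all 4 classes overlapped. High values in both replicates told the classes apart more clearly: a lower-of-replicates fold of at least 10 was reached by 1056 flanking peaks (15.3%), by 3.61% at gene ends, 12.3% inside genes and 24.6% beyond 50 kb, against 12.5% of all reproducible peaks. Summits agreed most loosely at gene ends (median offset 71 bp), then inside genes (40 bp), at flanking peaks (32 bp) and beyond 50 kb (28 bp). Peaks are not independent replicates and there were 2 MEIS2 libraries, so these differences were not tested.

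**Figure D2:**
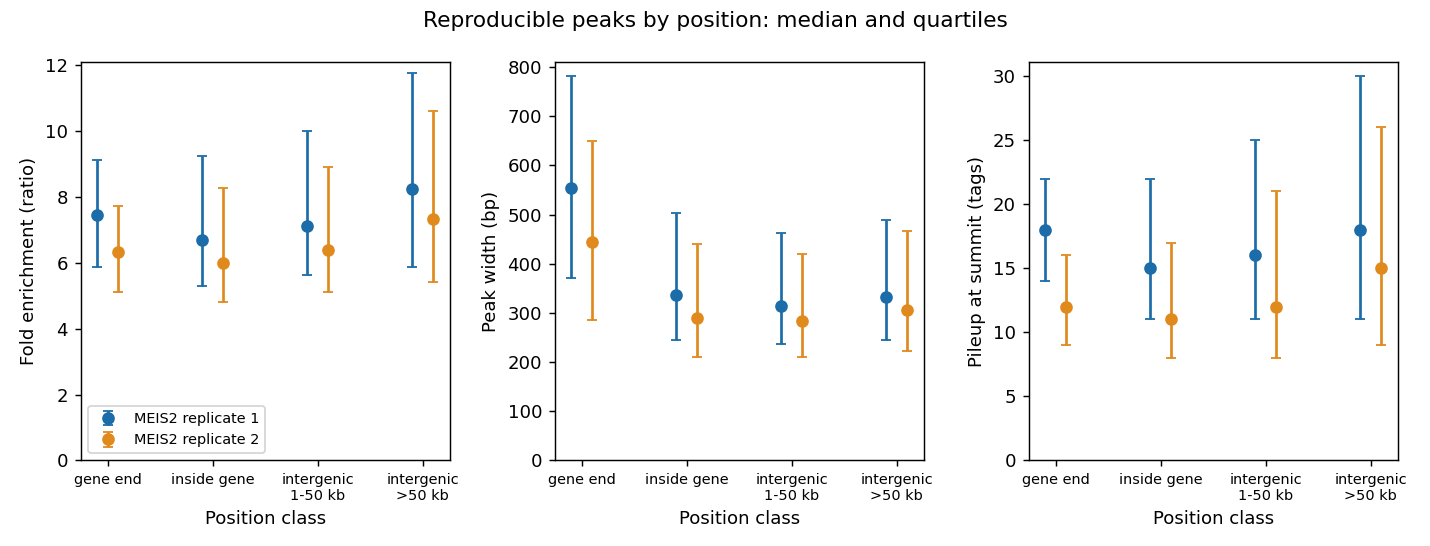
Median (point) and quartiles (bar) of fold enrichment, peak width in bp and pileup in tags for reproducible peaks of 4 position classes, with MEIS2 replicate 1 in blue and replicate 2 in orange. The flanking class, intergenic 1 to 50 kb, has the lowest median width in both replicates (315 and 284 bp), and gene-end peaks the highest (555 and 444.5 bp).

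Close to genes flanking peaks were sparse, and from 5 kb outwards their density was nearly level. The territory that could hold one, bases outside all genes and more than 1 kb from any gene end within 50 kb of a protein-coding gene, measured 449 Mb and held 15.4 flanking peaks per Mb (95% Poisson interval 15.1 to 15.8). By distance to the nearest protein-coding gene the density was 10.5 per Mb (9.28 to 11.8) at 1 to 2 kb, 11.6 (10.8 to 12.5) at 2 to 5 kb, 16.6 (15.8 to 17.6) at 5 to 10 kb, 16.8 (15.99 to 17.5) at 10 to 20 kb and 16.2 (15.6 to 16.8) at 20 to 50 kb. Reproducible peaks just beyond, at 50 to 100 kb, had 13.8 per Mb (13.2 to 14.4). For comparison, the 154 Mb within 1 kb of a gene end held 85.3 reproducible peaks per Mb, and the interior of genes 14.8. The density from 5 to 50 kb was 1.46 times that from 1 to 5 kb, and 2.46 times when only the top 5000 peaks by fold enrichment of each library entered. The intervals cover counting error only, and assembly gaps were not removed from the territory.

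The library without antibody had a lower density at every distance, and its density was also lower near genes, at 2.47 per Mb from 1 to 5 kb and 4.61 from 5 to 50 kb. At 50 to 100 kb it had 4.73 per Mb. All its peaks in this territory numbered 1876, or 4.18 per Mb, and went from 2.01 per Mb (1.504 to 2.64) at 1 to 2 kb to 4.22 at 5 to 10 kb and 4.69 at 20 to 50 kb. Complete replicate 1 and replicate 2 lists had 20.1 and 19.9 peaks per Mb at 1 to 2 kb, 29.95 and 32.2 at 5 to 10 kb, and 27.9 and 31.3 at 20 to 50 kb. Replicate 1 was therefore 10.0 times the no-antibody density at 1 to 2 kb, 7.11 times at 5 to 10 kb and 5.94 times at 20 to 50 kb, and replicate 2 was 9.87, 7.64 and 6.66 times. Within 1 kb of gene ends the no-antibody library had 1.37 peaks per Mb. With 1 such library, its values have no replicate check, and peaks called per library depend on its depth.

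**Figure D3:**
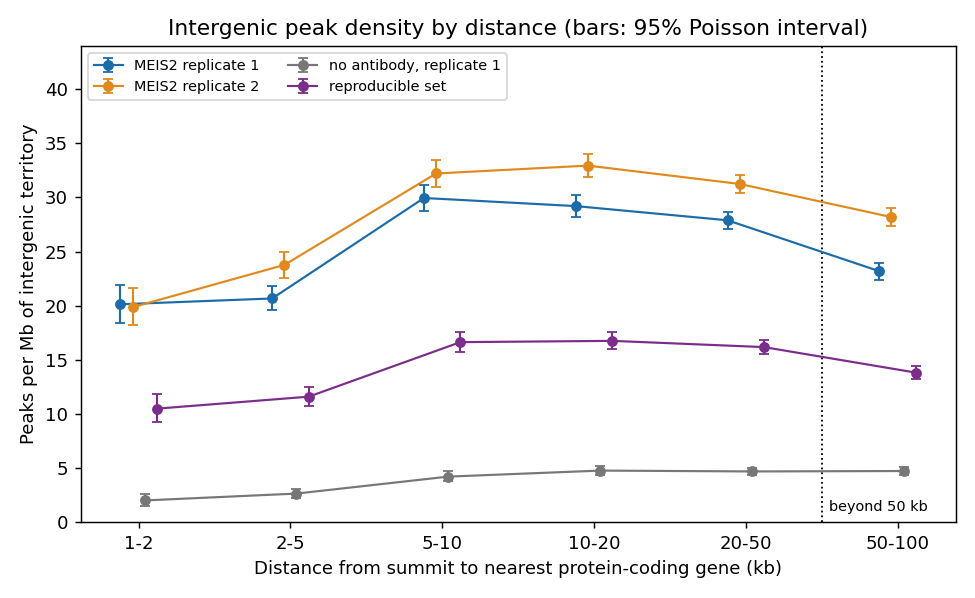
Peaks per Mb of intergenic territory (y axis) by distance from the summit to the nearest protein-coding gene in kb (x axis) for each MEIS2 library, the reproducible set and the no-antibody library, with 95% Poisson intervals as bars. The reproducible set goes from 10.5 at 1 to 2 kb to 16.6 at 5 to 10 kb and stays near that level up to the dotted line at 50 kb, and the no-antibody library goes from 2.01 to 4.22 over the same step.

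The median fold enrichment of flanking peaks was 6.24 and 5.74 (replicates 1 and 2) at 1 to 2 kb, 6.54 and 6.10 at 2 to 5 kb, 7.12 and 6.38 at 5 to 10 kb, 7.27 and 6.42 at 10 to 20 kb, and 7.37 and 6.72 at 20 to 50 kb. Both replicates thus gave the same order, with the lowest median nearest to genes. The expected pileup comes from a range of 10000 bp in the same library, so peaks at a nearby gene end can count towards it. Its part in this order, and in the lower density near genes, was not tested. Median width in replicate 1 did not exceed 321 bp in any bin. In all, 2758 flanking peaks (39.8%) lay at 20 to 50 kb and 271 (3.92%) at 1 to 2 kb, and the median distance was 15576 bp. At the limits of the rule, the peaks just inside 50 kb lay 49.992 kb from Hrh1 (2.39 and 2.69) and 49.983 kb from Ehbp1 (5.04 and 5.18). Those just outside lay 50.009 kb from LOC115488129 (5.16 and 5.46) and 50.020 kb from Fgf18 (7.92 and 4.72). At the 1 kb limit, the nearest inside were beside Gm5795 (7.04 and 6.61) and Nuf2 (6.46 and 6.73), both 1001 bp from a gene end, and the nearest outside beside Gm51600 (5.20 and 3.95) and Cst3 (5.86 and 7.81), at 1000 and 993 bp.

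Within 5 kb of genes, peak density was lower on the upstream than on the downstream side. Strand was known for the nearest gene of 5455 flanking peaks, of which 2807 (51.5%, 50.1 to 52.8) lay on its 5′ side and 2648 on its 3′ side, while 53.3% of the territory lay on the 5′ side. At 2 to 5 kb the density was 10.6 per Mb (9.36 to 11.9) on the 5′ side and 13.1 (11.7 to 14.6) on the 3′ side, and at 1 to 2 kb it was 9.15 (7.38 to 11.2) and 11.2 (9.28 to 13.4). These intervals overlap. At 1 to 2 kb the no-antibody library had 1.77 per Mb (1.05 to 2.80) on the 5′ side and 2.49 (1.63 to 3.65) on the 3′ side, the same direction as the flanking peaks. With each complete list taken on its own and cleared of no-antibody peaks, the 2 to 5 kb densities were 17.2 (15.6 to 18.8) and 22.3 (20.5 to 24.2) in replicate 1 and 19.7 (18.1 to 21.5) and 24.7 (22.8 to 26.7) in replicate 2, where they do not overlap. In the no-antibody library the 2 to 5 kb densities were 2.62 (2.04 to 3.32) and 2.71 (2.103 to 3.43). At 5 to 10 kb the 5′ and 3′ sides had 15.8 (14.4 to 17.1) and 17.6 (16.2 to 19.2) flanking peaks per Mb and 3.94 and 4.495 no-antibody peaks per Mb. From 10 to 20 kb the flanking densities were 16.7 and 17.1, within counting error. Median fold enrichment was 7.06 and 6.46 on the 5′ side and 7.22 and 6.40 on the 3′ side.

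About 6 in 10 peaks of this territory repeated. Of 11197 replicate 1 peaks there that were clear of no-antibody peaks, 61.8% (60.9 to 62.7) had a replicate 2 partner, against 64.6% of all such replicate 1 peaks. Of 12349 replicate 2 peaks there, 56.5% (55.6 to 57.4) had a replicate 1 partner, against 63.7% of all. Gene-end peaks repeated more often, at 75.7% and 87.2%, while intergenic peaks beyond 50 kb gave 70.4% seen from replicate 1 and 54.8% seen from replicate 2. The 20% of replicate 1 peaks in the flanking territory with the lowest fold enrichment had a partner in 35.4% of cases and the 20% with the highest in 97.2%; for replicate 2 the shares were 39.6% and 90.6%. Overlap with the no-antibody library removed 7.96% of replicate 1 and 8.63% of replicate 2 peaks in this territory, against 0.703% and 0.889% at gene ends and 12.4% and 12.1% beyond 50 kb. A no-antibody peak still lay within 10 kb of 957 flanking peaks (13.8%), against 3.30% of gene-end peaks and 17.6% of intergenic peaks beyond 50 kb.

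Of the 20665 protein-coding genes on these chromosomes, 4629 (22.4%) were nearest to at least 1 flanking peak, and most of these to exactly 1. There were 3139 genes with 1, 976 with 2, 453 with 3 or 4 and 61 with 5 or more. Genes with more flanking peaks had wider flanks: the median territory for which a gene was the nearest was 35 kb with 1 peak, 46.9 kb with 2 and 60.7 kb with 5 or more, against 12.7 kb over all genes. A reproducible peak at a gene's own end was present at 51.3% of genes with 1 flanking peak (49.5 to 53.0), 51.8% with 2, 49.2% with 3 or 4 and 49.2% with 5 or more, against 54.5% (53.8 to 55.3) of genes with none, 53.5% (52.7 to 54.4) of those with none but with some territory, and 53.8% of all. Promoter windows held a peak at 48.5% (47.6 to 49.4) of genes with no flanking peak, 45.4% (43.4 to 47.3) with 1, 43.5% (40.0 to 47.0) with 2 and 40.9% (36.2 to 45.7) with 3 or more. The intervals for 1, 2 and 3 or more overlap. The genes with none here include those without any territory.

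Genes of the LGE programme often had a flanking peak nearest to them. Among 29 LGE regulators, 17 (58.6%, Wilson interval 40.7 to 74.5) did, beside the 22.4% of all protein-coding genes. Their flanks were wide, with a mean of 57.1 kb of territory per gene against 21.7 kb over all genes, and per Mb of territory they had 16.9 flanking peaks (11.2 to 24.4) against 15.4 overall. Their share of genes was thus above the background, while their density was within counting error of it. The 28 flanking peaks beside them had median fold enrichments of 7.35 and 6.06, near those of all flanking peaks, and 2 of them had a lower fold of at least 10. With only the top 5000 peaks by fold enrichment of each library, 0 of the 29 genes had one, beside 2.69% of all protein-coding genes (555 genes).

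Dlx2, a homeobox gene required for striatal neuron differentiation, had 3 flanking peaks. The peak at chr2:71541327-71541554 lay 1.98 kb on its 3′ side, between Dlx2 and Dlx1, with fold enrichments of 4.00 and 3.33. The peaks at chr2:71564427-71564622 (8.82 and 6.38) and chr2:71581095-71581299 (7.06 and 6.32) lay 17.8 and 34.5 kb on its 5′ side. Pileups were 24 and 12 at the first, 14 and 9 at the second and 11 and 9 at the third, so the peak nearest to the gene had the most tags and the lowest fold enrichment. The promoter peak of Dlx2 (chr2:71546687-71546901) had 3.64 and 3.16. Dlx5, which lies beside Dlx6, had 1 at chr6:6874507-6875018, 2.88 kb from the gene (5.21 and 7.40). Meis2 had 1, 8.42 kb on its own 3′ side at chr2:115852709-115852999 (7.64 and 5.74, pileups 12 and 8). No flanking peak had Dlx1, Dlx6, Six3 or Zfp503 as its nearest gene; Dlx1 had 0.459 kb of territory of its own and Dlx6 6.47 kb, whereas Six3 had 54.6 kb and Zfp503 54.0 kb.

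Gsx1 and Gsx2, homeobox genes of ventral progenitors, had 3 and 2. At Gsx2 both were within 10 kb: chr5:75066999-75067502, 8.43 kb on the 5′ side (9.84 and 9.38), and chr5:75085530-75085796, 7.79 kb on the 3′ side (6.64 and 5.02). The strongest at Gsx1 lay 13.9 kb on its 5′ side (chr5:147174683-147175224, 8.80 and 6.38). Etv1, an ETS factor gene, had 3, the most distant of them 48.6 kb on the 3′ side with unequal values of 10.6 and 4.81. Bcl11b, which encodes the zinc finger factor CTIP2, had 3, of which those 1.09 and 2.06 kb on the 5′ side were weak (4.44 and 3.33, then 3.89 and 4.35). Sp8 had 2, with 8.86 and 9.48 at chr12:118836494-118837137. Isl1, a LIM homeobox gene of direct-pathway neurons, had 1 at chr13:116293861-116294268 (6.47 and 7.01), and Ebf1, which acts in the same neurons, had 1 at chr11:45045240-45045607 that was stronger (11.8 and 15.9). Pbx3, a TALE partner gene, had 1 at chr2:34145587-34146004 (13.1 and 8.07), and Meis1 had 1, 7.82 kb on its 5′ side (8.51 and 5.05).

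Markers of striatal projection neurons had flanking peaks beside 13 of 27 genes (48.1%, 30.7 to 66.0), against 22.4% of all protein-coding genes. Their flanks were wide, with a mean territory of 48.9 kb per gene against 21.7 kb over all genes. Per Mb of territory they had 15.1 flanking peaks (9.24 to 23.4) against 15.4 over all genes, within counting error. Rasd2, a striatal small GTPase gene, had 5, with 3 on its 5′ side (5.14 and 5.02, 5.86 and 7.18, 5.29 and 5.74) and 2 on its 3′ side (9.93 and 7.65, 9.19 and 5.63). In replicate 1 the 3′ pair was above the others, and in replicate 2 the values of the sides overlapped. The receptor gene Gpr6 had the flanking peak with the highest lower-of-replicates fold enrichment beside any listed gene, at chr10:41040579-41041090 and 29.1 kb on the 3′ side, with fold enrichments of 17.3 and 16.3 and pileups of 44 and 36. Adora2a, the adenosine receptor gene of indirect-pathway neurons, had 1 at chr10:75363178-75363462 (11.2 and 10.4). Foxp1 had 2 on its 5′ side (10.00 and 8.10, 11.2 and 10.9), Pde10a had 2 (5.71 and 4.46, 10.4 and 8.67), and the enkephalin gene Penk had 2 that lie side by side at chr4:4120551-4120864 and chr4:4121049-4121372 (7.21 and 5.40, 7.97 and 9.96). Neither Drd1 nor Drd2, the dopamine receptor genes, had any.

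Among the remaining lists, the highest densities were in 3 lists of other lineages or of progenitors. Ventral progenitor and radial glia genes had a flanking peak beside 11 of 22 genes and 25.9 per Mb (15.6 to 40.5), dorsal cortical excitatory genes beside 9 of 16 and 27.1 per Mb (15.5 to 44.1), and oligodendrocyte lineage genes beside 5 of 10 and 27.9 per Mb (11.2 to 57.4); the intervals of the first and second of these lie just above the overall density of 15.4, that of the third includes it, and no difference was tested. Tbr1, a marker of early cortical projection neurons, had 2, of which chr2:61852681-61853516 reached 13.8 and 13.9 with pileups of 59 and 53. The stem cell gene Nr2e1 had 2 (11.7 and 6.32 at the stronger), and Hes1, a Notch effector gene, had 1 at 47.9 kb with 12.6 and 8.75 and another 1.15 kb away with 4.10 and 7.92. Notch pathway genes had 9 of 24 (37.5%) and 19.98 per Mb, with 2 beside Hes5 and 2 beside Notch1. MGE and interneuron genes had 6 of 15 (40.0%, 19.8 to 64.3) and 14.1 per Mb (7.05 to 25.3), with a mean territory of 51.9 kb, led by the chromatin organiser gene Satb1 with 5. Of the peaks at Satb1, 4 lay 32.3 to 37.7 kb on the 5′ side (7.24 and 8.33, 6.01 and 5.52, 3.46 and 3.66, 3.84 and 3.86) and 1 lay 20.2 kb on the 3′ side (8.23 and 5.95).

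The lists of dorsal LGE and olfactory bulb (7 of 13, 18.1 per Mb), axon guidance (14 of 32, 11.2 per Mb), TALE homeobox (7 of 18, 10.8 per Mb), retinoic acid (6 of 18, 14.2 per Mb) and vessels and microglia (4 of 15, 12.3 per Mb) had intervals that included the overall density. Their counts of genes stand beside a share of 22.4% over all protein-coding genes. Genes of liver, muscle and pancreas, not expected to be used in this tissue, had 4 of 19 (21.1%, 8.51 to 43.3) and 18.4 per Mb (7.95 to 36.3), so their density was above that of LGE regulators and within counting error of it. Within these lists, Irx2 had 3 (13.6 and 9.0 at the strongest), Epha7 4 (9.41 and 7.01), Unc5d 2 (15.5 and 14.8) and Efna5 2 (13.5 and 14.2). Ins1, a pancreatic insulin gene, had 3, the strongest with 16.04 and 17.1. With replicate 2 peaks alone and no partner required, the counts of genes were 12 of 18 for TALE homeobox, 10 of 15 for MGE and interneurons, 8 of 15 for vessels and microglia and 8 of 19 for liver, muscle and pancreas, each over 1.5 times that given here. In that setting 33.8% of all protein-coding genes had one, 1.51 times the main share. In all, 149 of the 6921 flanking peaks lay beside one of the 234 listed genes, and 25 genes are in more than 1 list.

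**Figure D4:**
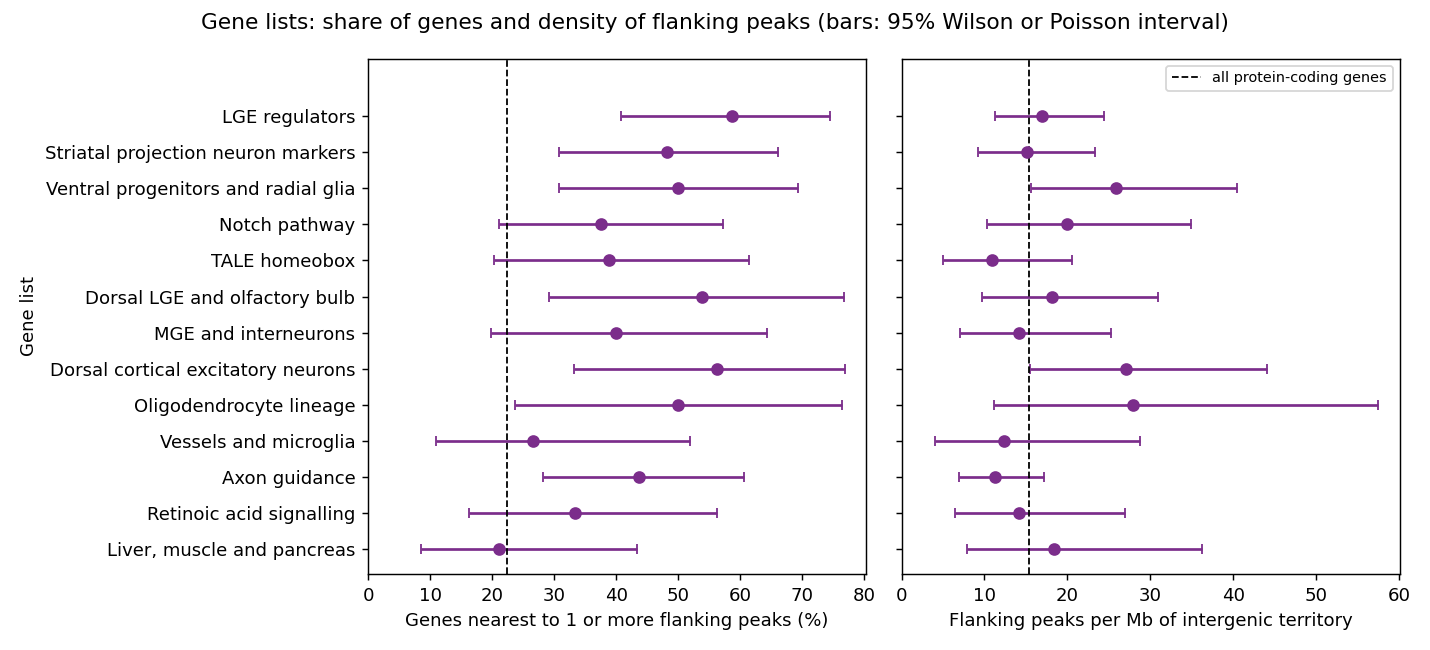
For 13 gene lists, the share of genes nearest to at least 1 flanking peak in percent (left, 95% Wilson interval) and flanking peaks per Mb of the genes' intergenic territory (right, 95% Poisson interval); dashed lines mark all protein-coding genes, 22.4% and 15.4 per Mb. LGE regulators stand at 58.6% on the left and at 16.9 per Mb on the right.

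The 5 genes with the most flanking peaks were not among the LGE regulators, a list of only 29 of the 20665 protein-coding genes. Of the 234 genes on any list, 2 had 5 or more flanking peaks, beside 61 of all 20665 (0.295%). Atg7, an autophagy gene, was nearest to 21, Gm21119 to 12, the histamine receptor gene Hrh1 to 10, the vomeronasal receptor gene Vmn2r69 to 8 and the collagen-modifying enzyme gene Plod2 to 8. The 61 genes with 5 or more held 354 flanking peaks (5.11%), and 29 of them (47.5%) also had a no-antibody peak in their territory, against 7.59% of all protein-coding genes. Zfp970, Vmn1r238, Vmn2r117, Pramel14 and Obox3, members of gene families that form local clusters, were among the 61 genes, as were Nhlh2, Satb1, Smad6, Pdgfa and Rasd2. Plod2 had fold enrichments from 4.86 to 8.96 in replicate 1 and 3.89 to 9.09 in replicate 2, with medians of 5.44 and 6.36, and 1 no-antibody peak in its territory.

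Atg7 and Hrh1 are neighbours, and the 31 flanking peaks between them, in chr6:114483299-114643126, had many tags and low fold enrichment. Their replicate 1 pileup ran from 24 to 101 with a median of 75, against a median of 16 for all flanking peaks, and their replicate 1 fold enrichment from 2.09 to 5.34 with a median of 2.84. The interval of 159.8 kb held 80 replicate 1 peaks, 85 replicate 2 peaks and 26 no-antibody peaks, the last with a median pileup of 40 against 13 over all no-antibody peaks. The excess of tags was thus present without antibody as well, and its part in the 31 calls was not tested. Of 386 flanking peaks with a replicate 1 pileup of at least 50, 49 had a fold enrichment under 5, and 29 of these 49 were in this interval. Without it 6890 flanking peaks remained, with a replicate 1 median fold of 7.13.

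**Figure D5:**
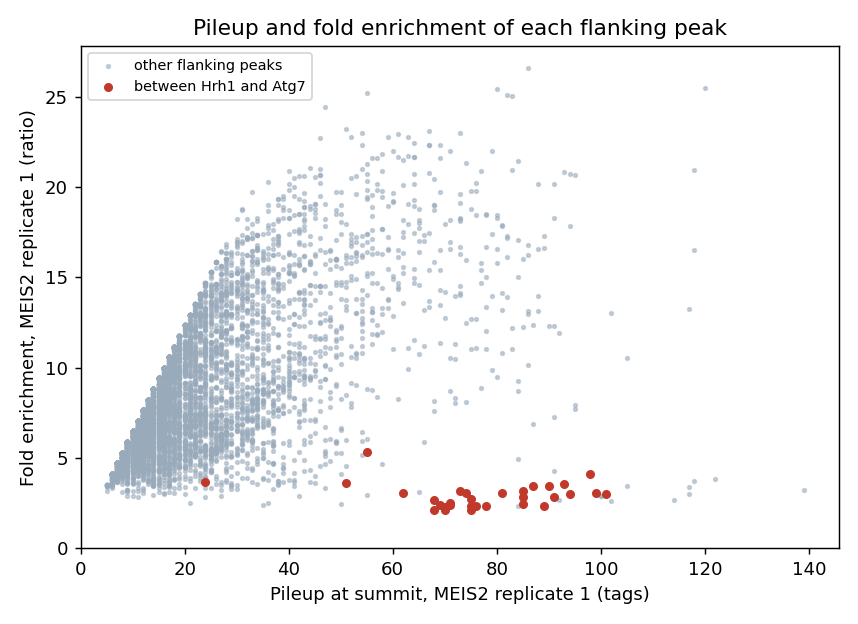
Pileup at the summit in tags (x axis) and fold enrichment (y axis) of each flanking peak in MEIS2 replicate 1, with the 31 peaks between Hrh1 and Atg7 in red. The red points lie at pileups from 24 to 101 and fold enrichments from 2.09 to 5.34, along the lower edge of the cloud.

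Most flanking peaks stood alone. With summits at most 5 kb apart counted as 1 run, 5285 (76.4%) had no other within reach, 511 runs held 2, and 178 runs held 3 or more, 614 peaks in all. Single peaks had median fold enrichments of 7.64 and 6.73 and a replicate 1 pileup of 14, those in pairs 6.41 and 6.19 with a pileup of 18, and those in runs of 3 or more 5.67 and 5.62 with a pileup of 25. Peaks in runs thus had more tags but lower fold enrichment. The expected pileup comes from a range of 10000 bp in the same library, so neighbouring peaks of a run can count towards it. How much of the lower fold this makes up was not tested. A no-antibody peak lay within 10 kb of 10.0% of the single peaks, 25.7% of those in pairs and 26.9% of those in longer runs; its part in the difference was not tested. The 3 largest runs, of 12, 9 and 6 peaks, all lay between Hrh1 and Atg7. Runs of 5 with no no-antibody peak inside their span lay beside Foxk2 and Wdr45b (chr11:121312654-121319387), Mroh2b (chr15:4856786-4865417), B3galt1 (chr2:68130278-68136825), Scp2 (chr4:108147477-108154337) and 2200002J24Rik (chr7:30689154-30695931). By chromosome the density ran from 12.6 per Mb on chromosome 1 to 18.2 on chromosome 4.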

How the data were processed

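Each of the 3 libraries has 1 deposited table of peaks. Per the file headers, MACS 2.2.7.1 called peaks in each library separately, with no control file, a q-value cutoff of 0.05, at most 1 tag per position and read pairs not used; the submitters' processing notes name MACS2 2.1.4, Bowtie2 2.3.4, Trimmomatic, Picard and mm10. The deposited pileup is a signal in extended tags at the summit and was left without scaling for depth. Fold enrichment, as deposited, is a ratio within a library. Significance is deposited as −log10 of a p-value and of a q-value. For a flanking peak, the replicate 2 value is that of the overlapping peak with the highest fold enrichment.

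Overlaps, distances and territory lengths were computed with Python 3.11.15, numpy 2.4.6, pandas 2.3.3 and scipy 1.17.1, and the code was checked on simulated peaks and genes. Gene positions (47042 genes on chromosomes 1 to 19, 20665 of them protein-coding) came from RefSeq GRCm38.p6, the assembly that mm10 names, and strand (16457 genes) from its promoter table. Exons, introns and UTRs play no part, since all summits lie outside genes. Intervals are 95% Wilson for shares and 95% Poisson for densities and cover counting error only. No test was run over peaks or genes. The planned motif search at summits needs a genome and was replaced by the search in promoter windows, chosen after the data were seen.

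The peaks, the gene lists and the settings were chosen with earlier results of these data known. The named peaks are the 10 with the highest lower-of-replicates fold enrichment, those beside Meis2, Dlx1, Dlx2, Dlx5, Dlx6, Six3 and Zfp503, the strongest beside up to 4 genes of each list with the most flanking peaks, the 5 genes with the most, and the 2 on either side of each limit. The genes with printed promoters, the other crowded genes and runs, and the peaks at Isl1, Ebf1, Meis1, Gpr6 and Adora2a were chosen after their values were seen. Peaks on other sequences (5028, 5851 and 1268) were left out. Some listed genes that the rule names are not reported here.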

Additional observations from a re-analysis of the deposited data

How the results depend on the processing

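The main values are 6921 flanking peaks, a replicate 1 median fold enrichment of 7.11, a median width of 315 bp, a 5 to 50 kb over 1 to 5 kb density ratio of 1.46, 4629 nearest genes and a partner share of 61.8%. With the top 5000 peaks by fold enrichment per library they became 571, 16.7, 518 bp, 2.46, 555 and 72.5%. With −log10 q of at least 5, median fold was 8.40, width 349 bp, density ratio 1.59 and partner share 58.1%; with replicate 2 as the base these were 6.38, 282 bp, 1.45 and 56.5%. A 50% reciprocal overlap gave a density ratio of 1.47 and a partner share of 53.7%. The density ratio was 1.39 with protein-coding genes alone, 1.37 with a gene end of 2.5 kb, 1.495 and 1.39 with outer distances of 25 and 100 kb, 1.43 with X and Y, 1.51 with no-antibody peaks kept, and 1.45 without the Hrh1 to Atg7 interval, a setting chosen after seeing the data. The gene end of 2.5 kb moved the start of the nearer bin, and the outer distances moved the end of the farther bin. Those ratios thus compare other distances than the main one. The ratio was above 1 in every setting run.

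Leaving out either MEIS2 replicate, so that peaks of 1 library needed no partner, gave 11197 to 12349 flanking peaks, median fold from 5.74 to 6.04, width from 229 to 267 bp, density ratio from 1.36 to 1.37 and 6381 to 6981 nearest genes; the partner share cannot be given then. LGE regulator genes numbered 14 to 24 in 12 of these settings, and 0 with the top 5000 peaks. That setting left 0 to 2 genes in every list and 2.69% of all protein-coding genes. TALE genes numbered 3 to 12 in the other settings. Ventral progenitor genes numbered 17 with protein-coding genes alone and Notch genes 5 with −log10 q of at least 5. Axon guidance genes numbered 6, retinoic acid genes 3 and MGE genes 3 within 25 kb. The share of all protein-coding genes moved as well, from 22.4% to 27.4%, 16.6% and 17.9% in these settings, in that order. It was 33.8% with replicate 2 peaks alone, where LGE regulator genes numbered 24 and TALE genes 12. The cause of the list shifts was not tested. No paired analysis was possible because the no-antibody group has 1 library and no test was run. The motif search at summits was not run without a genome. Depth was not varied.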
